A study of Mus musculus with 2 samples.

Results

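Histone genes were followed across 2 mouse single-cell libraries, 1 from a Runx3 knockout (labelled KO) and 1 from wild type (labelled WT), both with colon as the tissue label. Members were all 81 features, of 55357 in the gene list, whose symbol starts with H1f, H2ac, H2bc, H2az, H3c, H3f or H4c. They comprise 64 replication-dependent protein-coding genes, 9 variant genes and 8 pseudogenes or antisense genes. The study addresses the role of the transcription factor RUNX3 in natural killer (NK) cell infiltration of colorectal cancer, using RUNX3-deficient mice and tumour models. The sources used here do not give the age, strain or number of mice behind each library, the deleted part of Runx3, the tumour model or whether the cells came from a tumour.

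Replication-dependent histone genes lie in clusters and encode the bulk of the H1 linker histones and of the H2A, H2B, H3 and H4 core histones that package newly copied DNA. Their messages are made in S phase, and most end in a stem-loop bound by SLBP in place of a poly(A) tail. Variant histones such as H3.3 (H3f3a, H3f3b), H2A.Z (H2az1, H2az2) and the linker H1.0 (H1f0) are encoded by dispersed genes with polyadenylated messages and can be placed in chromatin outside replication. Some replication-dependent genes, among them H1f2 and H2bc4, are known to make polyadenylated transcripts as well. Capture of stem-loop messages by poly(A)-based single-cell kits is therefore partial, and levels of different members are not comparable as amounts of RNA.

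With 1 library per genotype and cells that are not replicates, no test was possible. Every interval below is a 95% interval that covers counting error only. After filtering, 5194 cells of the library labelled KO and 8343 of WT remained, with medians of 9350.5 and 8281 UMIs per cell. Levels are UMIs per 1000000 UMIs of the cells named (CPM). The library labelled KO had 1060 barcodes below the filter and WT had 0, and 17 barcode sequences occurred in both libraries. Runx3 itself had 192 CPM in the library labelled KO (188 to 196) and 255 CPM in WT (252 to 259), so these counts per gene do not check the label. Cells with a UMI of a Y-linked gene and none of Xist made up 24.1% of the library labelled KO and 79.5% of WT. Cells with Xist and no Y-linked gene made up 54.7% and 0.012%, so the library labelled KO holds cells of both sexes. Colon epithelium was nearly absent: 1 cell in each library had UMIs of at least 3 of 7 epithelial markers (Epcam, Cdh1, Krt8, Krt18, Krt19, Krt20 and Vil1).

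Cells were called cycling when they held at least 2 UMIs of Mki67 plus Top2a, 970 cells or 18.7% of the library labelled KO (17.6 to 19.8%) and 1251 cells or 14.99% of WT (14.2 to 15.8%). At an equal 3000 UMIs per cell, 10.02% (9.15 to 10.9%) and 8.45% (7.82 to 9.12%) were cycling, after 722 and 1163 cells with fewer UMIs were set aside. Cycling cells were deeper than non-cycling cells, with medians of 15356 against 8353 UMIs in the library labelled KO and 14260 against 7597 UMIs in WT. They held 29.8% of all UMIs in the library labelled KO and 25.1% in WT, which is the share a gene with equal levels in both kinds of cell would show.

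Of the 64 replication-dependent members, 54 lie on chromosome 13 and 10 on chromosome 3 (mm10). Annotated transcripts of 41 of them contain the stem-loop, a stem of 6 base pairs closed by a loop of 4 bases. The 6 forms found are printed because they are the element that sets these messages apart from those of the variant genes. The loop is in capitals, and the sequences are given as DNA from the transcripts of GENCODE M21:
24 members, among them H1f2, H1f4, H2ac8, H2ac24 and H3c1: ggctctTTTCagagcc
6 members of the H4 family, among them H4c4 and H4c8: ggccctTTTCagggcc
6 members, among them H3c3, H3c6 and H2bc3: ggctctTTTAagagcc
H4c9 and H4c14: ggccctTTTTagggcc
H4c2 and H4c11: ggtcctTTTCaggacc
H2ac20: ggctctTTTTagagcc
No variant gene among those that reached the minimum of 50 UMIs contained such a stem-loop. In 22 of the 41 members the annotated transcript ends within 100 bases of the stem-loop, and these gave 13.6% of replication-dependent UMIs. In 19 it runs at least 100 bases further, and these gave 62.8%. The other 23 members, whose annotated transcripts hold no such match, gave 23.6%. Single genes carried much of these shares. H1f2 held 19503 of the 35671 UMIs of the longer transcripts, and H2bc4 held 8092 of the 13376 UMIs with no match. Over members with any UMI, those that end near the stem-loop had a median of 71.6% of their UMIs in cycling cells in the library labelled KO and 69.1% in WT. Those with a longer transcript had medians of 52.0% and 49.3%, and those with no match 77.8% in both libraries. Some transcripts with no match are short, such as H2ac15 at 393 bases and H2bc18 at 381 bases, and others long, such as H2bc21 at 2620 bases. A stem-loop past a short annotated end would be missed. The class with no match therefore does not tell whether a high share in cycling cells goes with an end near the stem-loop. Over the 17, 16 and 14 members of these classes with at least 50 UMIs, the medians were 80%, 53.3% and 80.04% in the library labelled KO and 71.0%, 51.8% and 77.8% in WT.

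Replication-dependent histone transcripts were higher in cycling cells, and the ratio was the same in both libraries. Their sum was 885 CPM in cycling and 344 CPM in non-cycling cells of the library labelled KO, a ratio of 2.58 (2.52 to 2.64). In WT it was 707 CPM in cycling and 274 CPM in non-cycling cells, also a ratio of 2.58 (2.52 to 2.64). With every cell thinned to 3000 UMIs, the log2 ratio was 1.68 in the library labelled KO and 1.74 in WT, against 1.37 in both without thinning. Variant histones summed to 6313 CPM in cycling and 4613 CPM in non-cycling cells of the library labelled KO, a ratio of 1.37 (1.36 to 1.38). In WT they summed to 5643 and 3947 CPM, a ratio of 1.43 (1.42 to 1.44).

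H1f2 and H2bc4 made up most of the replication-dependent signal of non-cycling cells. H1f2 encodes the linker histone H1.2 and lies on chromosome 13 from 23738808 to 23740367 on the plus strand. It had 145 CPM in cycling and 170.3 CPM in non-cycling cells of the library labelled KO, a ratio of 0.85 (0.81 to 0.89). In WT it had 123 CPM in cycling and 145 CPM in non-cycling cells, again a ratio of 0.85 (0.81 to 0.89). Over all cells of each library, H1f2 was the 1 member of the 47 that reached the minimum to lie below 1 in both libraries. H2bc4, an H2B gene at 23684199 to 23692908 on the plus strand of chromosome 13, had 74.5 CPM in cycling and 62.8 CPM in non-cycling cells of the library labelled KO. In WT it had 65.2 and 56.4 CPM, and the ratios were 1.19 (1.11 to 1.27) in the library labelled KO and 1.15 (1.08 to 1.23) in WT. Together these genes held 24.8% of replication-dependent UMIs in cycling and 67.9% in non-cycling cells of the library labelled KO, and 26.6% and 73.4% in WT. Leaving out H1f2 alone brought the log2 ratio of the group to 2.10 in the library labelled KO and 2.18 in WT. The annotated H1f2 transcript runs 840 bases past its stem-loop.

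Summed by family, H2A genes differed most between cycling and non-cycling cells. The 17 replication-dependent H2A members summed to 254 CPM in cycling and 18.7 CPM in non-cycling cells of the library labelled KO, a ratio of 13.6 (12.5 to 14.7). In WT they summed to 206 and 13.4 CPM, a ratio of 15.4 (14.3 to 16.7). The 12 H3 members gave ratios of 5.09 (4.52 to 5.72) in the library labelled KO and 5.74 (5.07 to 6.51) in WT. The 12 H4 members gave 3.28 in both libraries (3.05 to 3.53 in the library labelled KO and 3.05 to 3.54 in WT). The 6 H1 members gave 1.67 (1.61 to 1.73) and 1.71 (1.65 to 1.77). The 17 H2B members gave 1.69 (1.59 to 1.79) and 1.58 (1.496 to 1.67). H1f2 and H2bc4 belong to these last families. Of the 4147 H2A UMIs in cycling cells of the library labelled KO, H2ac8 held 1888 and H2ac24 held 1229. In WT they held 1032 and 2013 of 3920. The H2A ratio thus rests largely on these genes, and it was not computed without them.

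**Figure D1:**
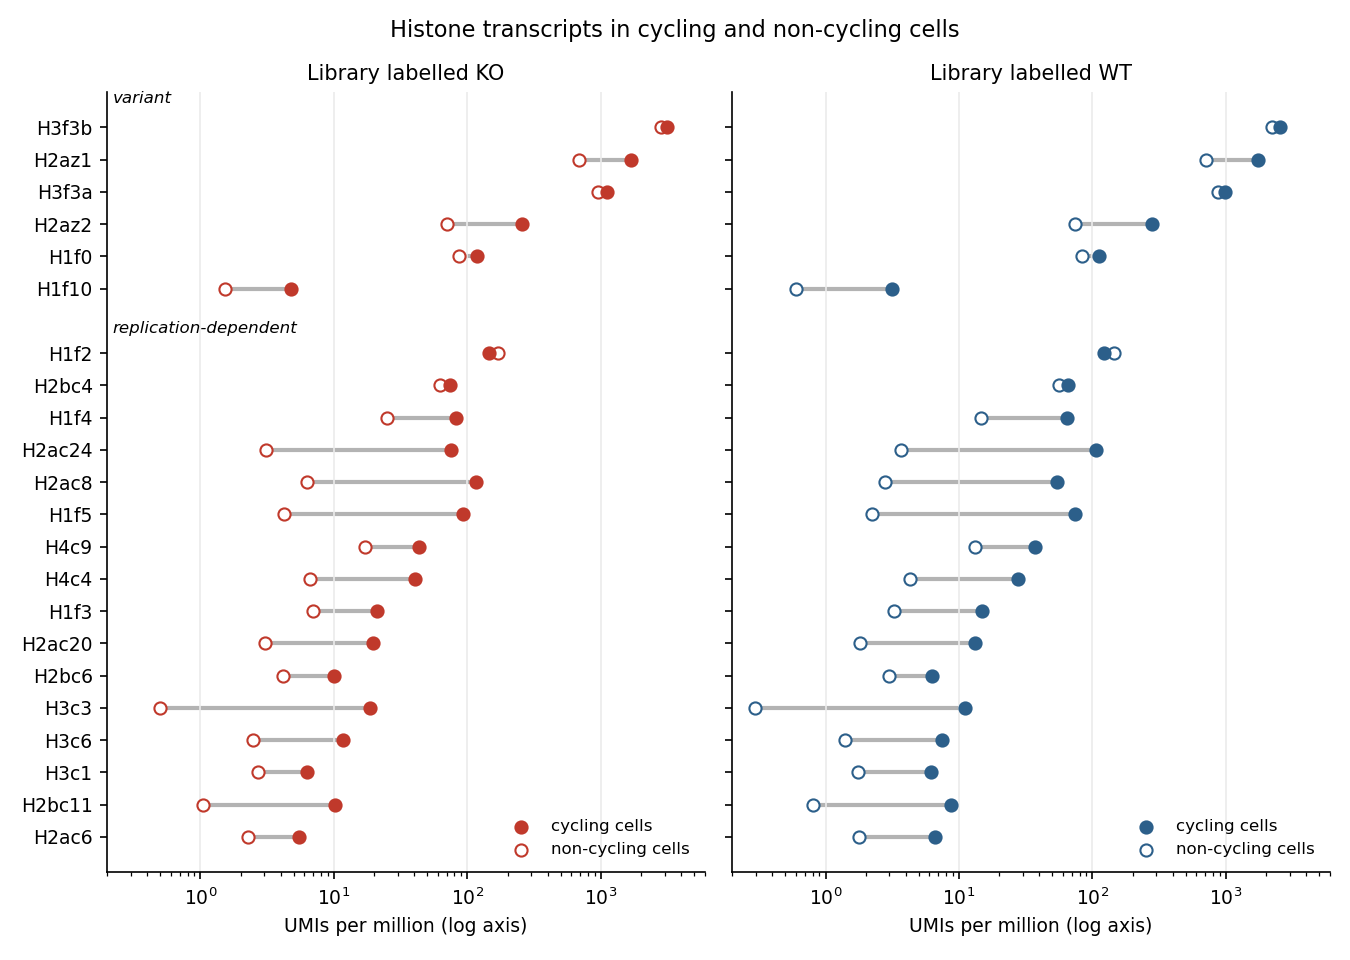
Levels of the 6 variant and the 16 most abundant replication-dependent members in CPM on a log axis, with filled points for cycling and open points for non-cycling cells, in the library labelled KO (left) and WT (right). H2ac24, H2ac8, H1f5 and H3c3 span the longest distances, H3f3b and H3f3a hardly move, and H1f2 is the only member with its open point to the right.

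Among single members, 11 of 47 replication-dependent genes were at least 2-fold higher in cycling cells in both libraries after 5 CPM was added to each level, against 2.36% of the 16329 genes that reached 50 UMIs. The library labelled KO alone gave 12 of 47, with 2.54% of all genes, and WT alone gave 11 of 47, with 2.79%. No member was 2-fold lower in both libraries, against 0.0919% of all genes. The 11 genes were H1f3, H1f4, H1f5, H2ac4, H2ac8, H2ac20, H2ac24, H2bc11, H3c3, H4c4 and H4c9. The median log2 ratio over the 47 members was 0.61 in the library labelled KO and 0.50 in WT, beside 0.03 in both for all genes. The added 5 CPM holds back the many members with low levels: without it, 35 of 47 had ratios of at least 2 in both libraries, against 5.82% of all genes, and 12 of at least 10, against 0.851%. The interval lay above 1 in both libraries for 41 of 47, against 23.9% of all genes, the exceptions being H1f2, H2bc7, H2bc21, H3c15, H4c1 and H4c17.

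H2ac8, an H2A gene at 23570517 to 23571220 on the minus strand of chromosome 13, had 115 CPM in cycling and 6.31 CPM in non-cycling cells of the library labelled KO, a ratio of 18.3 (15.98 to 20.97). In WT it had 54.2 and 2.81 CPM, a ratio of 19.3 (16.3 to 22.9). H2ac24, another H2A gene at 21833026 to 21833507 on the minus strand, had 75.1 and 3.12 CPM in cycling and non-cycling cells of the library labelled KO and 106 and 3.71 CPM in WT. Its ratios were 24.1 (19.96 to 29.3) and 28.5 (24.7 to 33.0). H1f5, which encodes the linker histone H1.5, had 92.8 CPM in cycling and 4.24 CPM in non-cycling cells of the library labelled KO, a ratio of 21.9 (18.6 to 25.9). In WT it had 74.0 and 2.25 CPM, a ratio of 32.9 (27.5 to 39.8). In contrast to H1f2, these genes stayed at a few CPM outside the cycling cells.

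H1f4, which encodes H1.4, lay between these patterns. It had 81.5 CPM in cycling and 25.2 CPM in non-cycling cells of the library labelled KO, a ratio of 3.24 (2.98 to 3.52), and 64.9 and 14.6 CPM in WT, a ratio of 4.45 (4.07 to 4.86). H1f3, which encodes H1.3, gave ratios of 3.03 (2.57 to 3.56) and 4.56 (3.78 to 5.52). Within the H1 family the ratio thus ran from 0.85 for H1f2 to over 20 for H1f5 in each library. Among the other abundant members, H2ac20 gave 6.49 and 7.31, H2ac6 2.38 and 3.66, and the H2B genes H2bc11 9.88 and 10.8 and H2bc6 2.43 and 2.12, in the library labelled KO and WT. The H3 genes H3c6 and H3c1 gave 4.73 and 2.33 in the library labelled KO, and 5.33 and 3.52 in WT. The H4 genes H4c9 and H4c4 gave 2.54 and 6.05 in the library labelled KO, and 2.83 and 6.37 in WT. The H3 gene H3c3 had 18.8 CPM in cycling and 0.49 CPM in non-cycling cells of the library labelled KO, a ratio of 38.0 (23.9 to 64.0), and 11.2 and 0.30 CPM in WT, a ratio of 37.4 (22.8 to 65.5). H3c2 had 25 UMIs in cycling and 0 in non-cycling cells of the library labelled KO, at least 19.6-fold higher against a floor of 3 counts over the group. In WT it had 33 and 2 UMIs, a ratio of 49.3 (12.6 to 424).

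The remaining members were low. Among replication-dependent genes, 13 had between 1 and 49 UMIs over both libraries and 4 had 0 (H2ac1, H2bc1, H2bc23 and H3c14). Of the 9 variant genes, 6 reached the minimum, H1f8 and H1f9 had 11 and 2 UMIs and H1f7 had 0. The 8 pseudogenes and antisense genes summed to 48 UMIs in the library labelled KO and 31 in WT, and none reached the minimum. The annotated transcripts of these genes share sequence: 57 of the 64 replication-dependent genes share windows of 90 bases with another member. In 26 such windows make up at least 50% of the transcript. Most sharing is within a family, but H1f4 and H2bc6, of different families, also share windows. H2ac24 shares 92.4% and H2ac8 31.9%, so the split of counts between single H2A members is uncertain. Family sums do not depend on the split within a family. How reads that match several members were counted was not checked, so the sums may miss such reads.

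Variant genes showed separate patterns. H2az1 and H2az2, the H2A.Z genes, were higher in cycling cells, and they were the 2 of 6 variant members at the minimum that passed 2-fold in both libraries, against 2.36% of all genes. H2az1 (chromosome 3, 137864487 to 137866922, plus strand) had 1670.3 CPM in cycling and 686 CPM in non-cycling cells of the library labelled KO, and 1736 and 709.8 CPM in WT. Its ratios were 2.43 (2.39 to 2.48) and 2.45 (2.41 to 2.48), close to that of the summed replication-dependent genes. H2az2 gave 3.64 (3.47 to 3.82) and 3.79 (3.64 to 3.95). Over all cells, the H3.3 genes hardly differed. H3f3b (chromosome 11, 116021912 to 116027962, minus strand) had 3152 and 2809 CPM in cycling and non-cycling cells of the library labelled KO and 2531 and 2213 CPM in WT, with ratios of 1.12 (1.11 to 1.13) and 1.14 (1.13 to 1.16). H3f3a gave 1.16 (1.14 to 1.18) and 1.13 (1.11 to 1.15). In the cell classes described below, H3f3b gave 1.15 and 1.14 in macrophages or monocytes and 1.07 and 1.01 in T cells. Its ratios were larger in dendritic cells, at 1.73 (1.61 to 1.87) and 1.46 (1.33 to 1.60), and in mast or basophil cells, at 1.36 and 1.62. H1f0, the H1.0 gene known for rising in cells that leave the cycle, was nonetheless 1.38 (1.31 to 1.46) and 1.35 (1.28 to 1.42) times as high in cycling cells. H1f10, which encodes H1.10, gave 3.11 (2.19 to 4.44) and 5.27 (3.41 to 8.28) at levels under 5 CPM.

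Of the 38 genes listed for histone message processing and histone chaperones, 10 were at least 2-fold higher in cycling cells in both libraries, against 2.36% of all genes, and 0 lower, against 0.0919%. They include Slbp, which encodes the stem-loop binding protein, with 118 and 54.5 CPM in cycling and non-cycling cells of the library labelled KO and 133 and 61.7 CPM in WT. Asf1b, a chaperone of newly made H3 and H4, gave the largest ratios of the list among those 10, 15.8 in the library labelled KO and 16.6 in WT. Chaf1a, a subunit of the replication-coupled chaperone CAF-1, gave 5.89 and 5.59. Hjurp, the chaperone of the centromeric H3 variant, gave 4.52 and 4.44. Mcm2, a helicase subunit that also binds H3 and H4, gave 2.92 and 3.38, and Chaf1b gave 4.06 and 3.23.

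Promoters of the replication-dependent genes share short elements. RefSeq promoter windows on GRCm38.p6, from 250 bases before to 50 after the start, were matched to 70 members, 59 of them replication-dependent. CCAAT, searched on both strands as CCAAT or ATTGG, occurred in 51 of 59 (86.4%), against 37.9% of all 27025 promoters. TATAAA (or TTTATA) occurred in 34 of 59 (57.6%), against 14.2%. The octamer ATTTGCAT (or ATGCAAAT) occurred in 12 of 59 (20.3%), against 1.75%, all of them H2A or H2B genes, 6 of 17 and 6 of 15. CCAAT occurred in each of the H1, H2A, H2B and H3 promoters matched but in 3 of 11 H4 promoters. Each motif was counted on its own, so that matches of different motifs could overlap, and a match is a description of the sequence, not of a bound site. Windows of genes that face each other across a short gap can overlap, and the same match then counts for both genes. These counts of promoters are therefore not counts of separate elements. H2ac8 is printed as the member that differed most between the libraries and as 1 side of a shared promoter, H2ac24 as the member that differed the other way, and H1f2 as the member high outside the cycle. Each is written 5′ to 3′ on the strand of its gene, with these motifs in capitals:
H2ac8, chr13:23571171-23571470, minus strand: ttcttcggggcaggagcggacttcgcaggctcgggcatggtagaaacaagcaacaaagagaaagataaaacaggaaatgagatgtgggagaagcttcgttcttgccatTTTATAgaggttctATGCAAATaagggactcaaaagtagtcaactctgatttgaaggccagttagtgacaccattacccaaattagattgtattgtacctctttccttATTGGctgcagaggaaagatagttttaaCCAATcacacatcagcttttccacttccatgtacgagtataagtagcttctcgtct
H2ac24, chr13:21833426-21833725, minus strand: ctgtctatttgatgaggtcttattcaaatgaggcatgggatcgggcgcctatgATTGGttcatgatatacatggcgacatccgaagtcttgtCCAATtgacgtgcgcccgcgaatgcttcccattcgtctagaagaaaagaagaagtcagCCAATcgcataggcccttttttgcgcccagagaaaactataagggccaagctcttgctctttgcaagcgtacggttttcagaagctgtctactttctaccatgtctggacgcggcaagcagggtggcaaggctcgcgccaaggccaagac
H1f2, chr13:23738557-23738856, plus strand: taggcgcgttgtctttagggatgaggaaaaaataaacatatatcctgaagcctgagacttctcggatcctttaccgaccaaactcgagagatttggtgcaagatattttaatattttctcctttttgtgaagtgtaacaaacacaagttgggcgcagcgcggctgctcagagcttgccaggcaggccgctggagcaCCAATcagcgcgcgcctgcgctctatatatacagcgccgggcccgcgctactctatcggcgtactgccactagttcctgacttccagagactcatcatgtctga
The H2ac8 window holds the octamer as ATGCAAAT, a TATAAA on the opposite strand (written TTTATA) and 2 CCAAT elements. It also takes in the annotated start of H2bc8 at 23571396, and which gene these elements serve was not tested. The H2ac24 window holds 3 CCAAT elements and neither of the others, and that of H1f2 a single CCAAT.

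H2ac8 faces H2bc8 across 175 bases, and 13 such divergent pairs were found, with gaps of 175 to 659 bases. In 8 pairs both genes reached 50 UMIs, and the counts of partners were often unlike. H2ac8 had 3323 UMIs over both libraries and H2bc8 had 211, which is 15.7 times fewer. H2ac24 had 3573 UMIs and its partner H2bc24 had 138, and H2bc4 had 8092 UMIs and its partner H2ac6 had 404. H2bc9 and H3c7, by contrast, had 85 and 98 UMIs. Transcripts of different 3′ ends are captured unequally, so these are counts and not amounts of RNA.

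Cycling cells were ordered by the S-phase share of their list UMIs, using lists of 15 S-phase and 15 G2 and M genes. Ranked were the 693 cells of the library labelled KO and 957 of WT with at least 10 UMIs of the lists. The S-phase genes were Pcna, Mcm3, Mcm4, Mcm5, Mcm6, Tyms, Rrm2, Gins2, Cdc6, Cdt1, Ung, Dtl, Clspn, Hells and Uhrf1. The tertiles rank cells already chosen by Mki67 and Top2a, and cell cycle phase itself was not measured. Replication-dependent histones were lowest in the S-rich tertile. They had 400.4, 1310.4 and 1378 CPM in the S-rich, middle and G2M-rich tertiles of the library labelled KO, and 330.1, 1039.7 and 1006 CPM in WT. The S-rich tertile was thus 0.29 (0.28 to 0.31) and 0.33 (0.31 to 0.35) times the G2M-rich tertile. The sums of the S-rich tertile lay above those of non-cycling cells, 344 and 274 CPM. H2A genes peaked in the middle tertile in both libraries, at 460.0 CPM in the library labelled KO and 371 CPM in WT, against 389 and 272 CPM in the G2M-rich tertile. H2B genes were highest in the G2M-rich tertile, at 219 CPM in the library labelled KO and 182 CPM in WT.

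**Figure D2:**
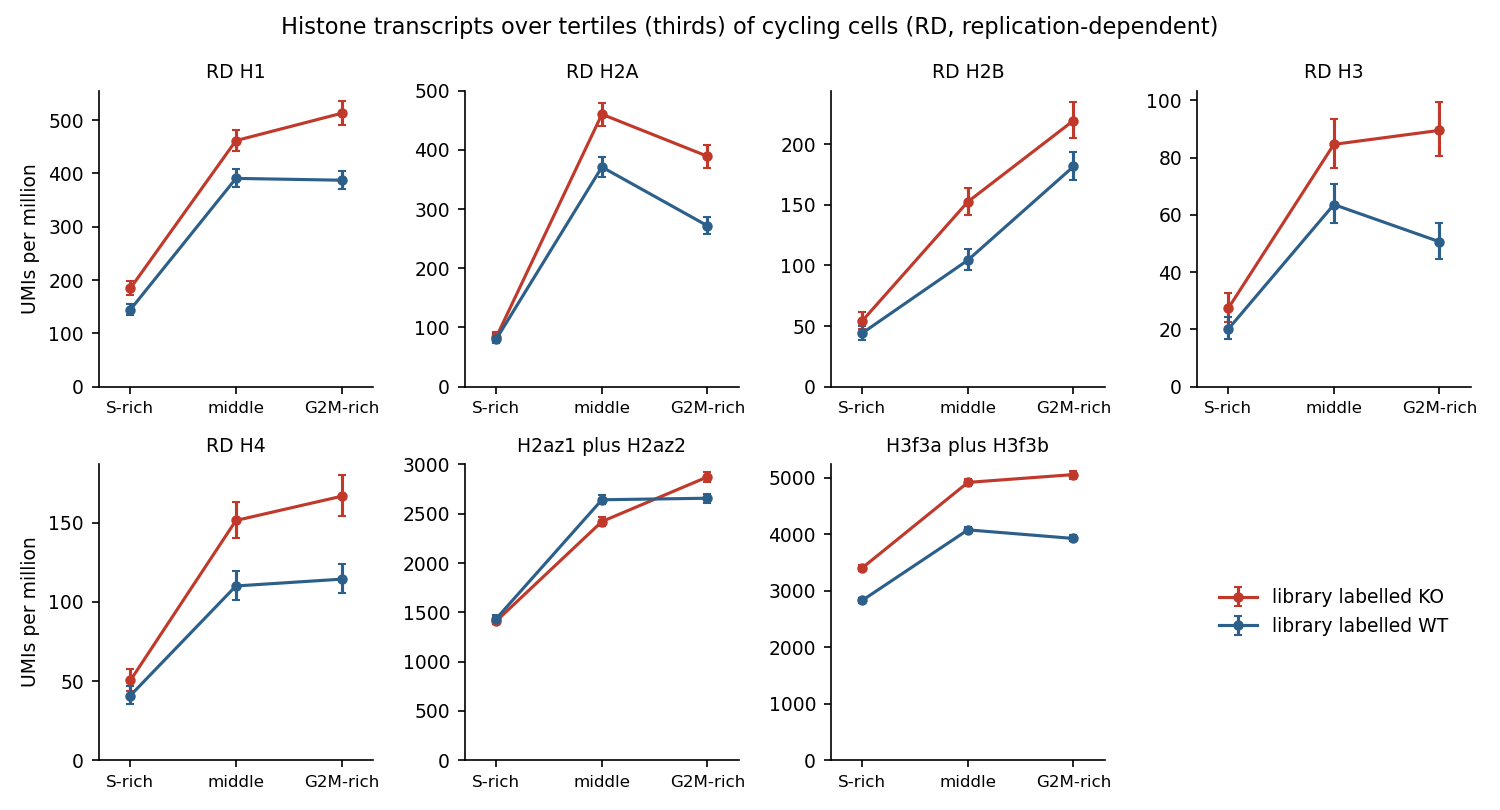
Summed levels of histone groups in CPM over tertiles of cycling cells, from cells rich in S-phase list transcripts to cells rich in G2 and M list transcripts, in red for the library labelled KO and blue for WT, with 95% counting intervals. All groups are lowest in the S-rich tertile, and the replication-dependent H2A sum is highest in the middle tertile.

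Single members mostly followed the group. H2ac8 had 33.4, 205.0 and 189 CPM over the tertiles of the library labelled KO, and 16.2, 96.3 and 78.0 CPM in WT. H1f2 had 88.0, 127 and 214 CPM in the library labelled KO, and 68.8, 115 and 189 CPM in WT, so its level in the S-rich tertile was under that of non-cycling cells. H3c1 was the exception, with S-rich over G2M-rich ratios of 1.12 (0.63 to 2.01) and 1.02 (0.61 to 1.71), intervals that also take in values well below 1. The H3.3 gene H3f3a differed little, with ratios of 0.88 (0.85 to 0.92) and 0.86 (0.83 to 0.89). The tertiles differ in depth, with medians of 17496, 19160.0 and 15746 UMIs per cell in the library labelled KO and 14996, 16272 and 16160.0 in WT. Within 0.02 of the lower and upper limits of the middle tertile, in units of the S-phase share, lay 28 and 16 cells of the library labelled KO and 41 and 26 of WT. Some non-cycling cells also carried S-phase transcripts: 415 in the library labelled KO and 489 in WT reached the median S-list level of cycling cells. Their replication-dependent sums were 277 and 209.6 CPM, against 351 and 279 CPM in the other non-cycling cells. H1f2 and H2bc4 were lower in these S-rich non-cycling cells, with ratios of 0.60 (0.54 to 0.66) and 0.76 (0.65 to 0.88) in the library labelled KO and 0.63 (0.56 to 0.70) and 0.51 (0.42 to 0.61) in WT. Other members went the other way. The H2A sum had ratios of 1.24 (0.98 to 1.56) in the library labelled KO and 1.39 (1.07 to 1.79) in WT, and the H3 sum 1.24 (0.90 to 1.67) and 1.69 (1.19 to 2.34). H3c1 had 2.34 (1.38 to 3.82) and 3.33 (1.91 to 5.53), H2ac24 1.83 (1.07 to 2.98) and 1.65 (1.01 to 2.57), and H1f5 1.503 (0.92 to 2.35) and 2.78 (1.66 to 4.47).

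Cells were gated into classes by summed counts of marker genes, with 28.6% of the library labelled KO and 29.4% of WT left ungated. Markers that the gates did not use were found in the classes they mark: Trac was at 512 and 472 CPM in gated T cells of the library labelled KO and WT, Gzma at 1452 and 1661 CPM in NK cells, and Hdc at 2913 and 2925 CPM in mast or basophil cells. Hdc was also at 2113 and 1199 CPM in gated neutrophils, so it does not set the mast or basophil class apart. C1qa, read in macrophages at 3092 and 3543 CPM, was also found at 131 and 129 CPM in T cells and 187 and 247 CPM in fibroblast or mesenchymal cells. Such free or carried-over RNA can add to histone counts in any class, and its part was not tested. Classes with fewer than 20 cycling cells in a library, which are NK, dendritic, fibroblast or mesenchymal, mast or basophil, neutrophil and B cells, are described by their values. Neutrophils, with 1 cycling cell in the library labelled KO and 0 in WT, and B cells, with 2 and 1, are left out of the comparisons below. The B cells of the library labelled KO had a cycling over non-cycling ratio below 1, at 0.46 (0.21 to 0.88), and those of WT one of 4.41 (1.05 to 21.3).

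Macrophages or monocytes, the largest class, had 876 CPM of replication-dependent histones in cycling and 303 CPM in non-cycling cells of the library labelled KO, a ratio of 2.89 (2.81 to 2.99). In WT they had 621 and 243 CPM, a ratio of 2.55 (2.47 to 2.63). T cells had 1281 and 368 CPM in the library labelled KO, a ratio of 3.48 (3.14 to 3.86), and 1152 and 357 CPM in WT, a ratio of 3.23 (3.01 to 3.47). The T cell ratio was the higher of these 2 classes in both libraries. NK cells gave ratios of 2.997 (2.48 to 3.62) from 10 cycling cells of the library labelled KO and 2.08 (1.76 to 2.45) from 26 of WT. Dendritic cells gave 4.18 (3.54 to 4.95) from 24 and 3.93 (3.21 to 4.82) from 19 cycling cells. Fibroblast or mesenchymal cells gave 1.86 (1.64 to 2.12) from 13 and 1.62 (1.32 to 1.96) from 5 cycling cells.

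**Figure D3:**
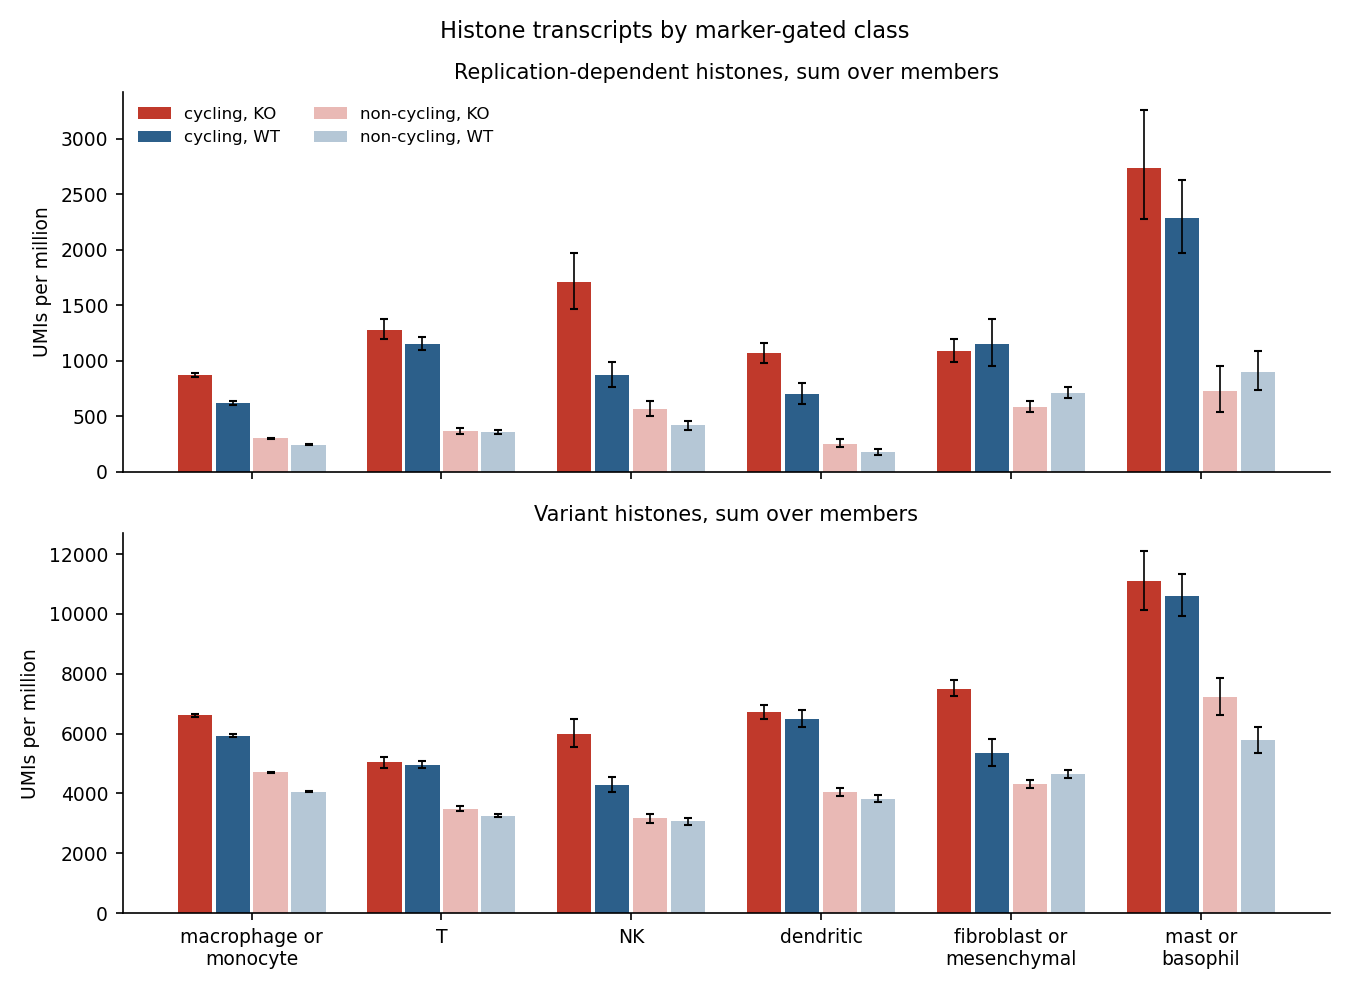
Summed replication-dependent (top) and variant (bottom) histone levels in CPM by gated class, in cycling (dark) and non-cycling (pale) cells of the library labelled KO (red) and WT (blue), with 95% counting intervals. Cycling cells lie above non-cycling cells in each class shown, and mast or basophil cells, with 4 and 6 cycling cells, reach the highest sums.

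Fibroblast or mesenchymal cells had high levels of several members outside the cycle. In non-cycling cells of that class H1f2 had 296 CPM in the library labelled KO and 414 CPM in WT, against 153 and 132 CPM in macrophages or monocytes. H2bc4 had 174 and 196 CPM there, against 55.3 and 52.3 CPM in macrophages or monocytes. H1f0 had 262 and 338 CPM, against 73.1 and 79.6 CPM. H2A genes stayed low in non-cycling fibroblast or mesenchymal cells, at 18.9 CPM in the library labelled KO and 20.04 CPM in WT. Their cycling cells had 326 and 381 CPM. Non-cycling dendritic cells had H1f2 at 114 CPM in the library labelled KO and 83.1 CPM in WT, below macrophages or monocytes in both. Their H2az1 levels were 1184 and 1265 CPM, against 695 and 723 CPM in macrophages or monocytes and 229 and 270.2 CPM in fibroblast or mesenchymal cells. Non-cycling mast or basophil cells, 16 and 28 in number, had H2az1 at 1926 and 1734 CPM and H1f2 at 363 and 615 CPM. The cycling over non-cycling ratio of H1f2 differed between classes. In the library labelled KO and WT it was 0.90 and 0.83 in macrophages or monocytes and 0.67 and 0.38 in fibroblast or mesenchymal cells. NK cells gave 0.96 and 0.64, T cells 1.19 and 0.83, and mast or basophil cells 2.05 and 0.56. In dendritic cells it was 1.28 (0.92 to 1.76) and 2.28 (1.60 to 3.22).

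Between the libraries, the summed transcripts of the chosen histone members were higher in the one labelled KO. Over all cells, replication-dependent members summed to 505 CPM in the library labelled KO and 383 CPM in WT, a ratio of 1.32 (1.30 to 1.34). Variant members summed to 5120.2 and 4372 CPM, a ratio of 1.17 (1.17 to 1.18). Of the 47 replication-dependent members at the minimum, 44 were higher in the library labelled KO, as were 6 of 6 variant members, against 45.1% of all genes. At 2-fold, 1 of 47 was higher, against 0.288% of all genes, and 0 were lower, against 0.116%. In cycling cells these counts were again 1, against 0.318%, and 0, against 0.184%. The median log2 ratio over the 47 was 0.15, beside -0.01 for all genes. The difference was similar within cycling cells, at 1.25 (1.22 to 1.28), and within non-cycling cells, also at 1.25 (1.22 to 1.28). In cycling cells 41 of 47 were higher in the library labelled KO, against 43.9% of all genes, and in non-cycling cells 37 of 47, against 44% of all genes. For variant members the counts were 4 of 6 in cycling and 4 of 6 in non-cycling cells, against the same shares of all genes. The S-phase and the G2 and M lists were also higher in the library labelled KO over all cells, with ratios of 1.08 (1.06 to 1.10) and 1.11 (1.09 to 1.13), and in non-cycling cells, with 1.05 (1.02 to 1.07) and 1.09 (1.03 to 1.14). In cycling cells they were lower, with 0.97 (0.95 to 0.98) and 0.94 (0.92 to 0.96).

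**Figure D4:**
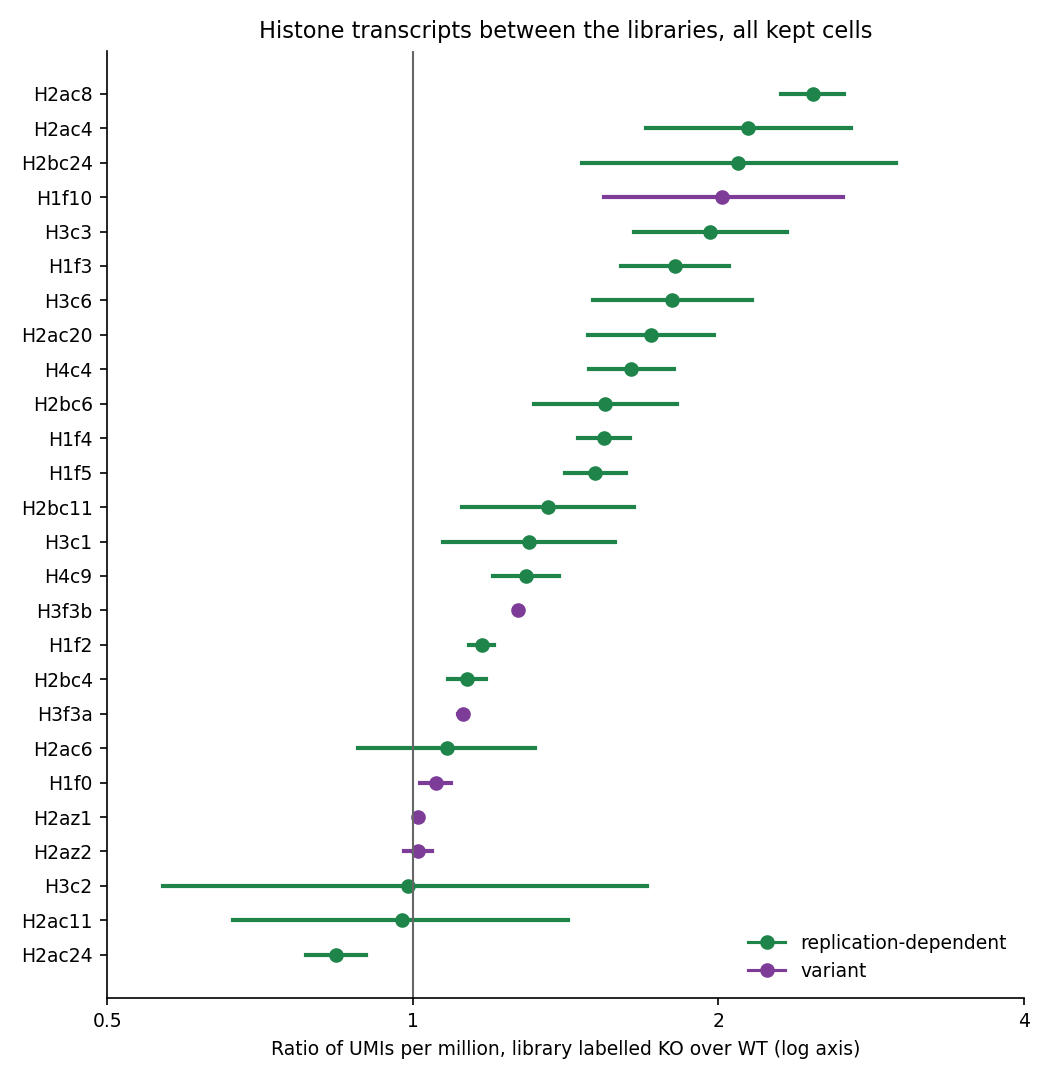
Levels over all kept cells in the library labelled KO divided by those in WT, on a log axis, for the 22 most abundant members and the members with the 3 highest and 3 lowest ratios, with 95% counting intervals. H2ac8 lies highest at 2.48 and H2ac24 lowest at 0.84, and the H2A.Z genes lie at 1.01.

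H2ac8 and H2ac24, H2A genes that share sequence windows, lay at opposite ends of the members' ratios. With cycling and non-cycling cells pooled, H2ac8 had 38.9 CPM in the library labelled KO and 15.7 CPM in WT, a ratio of 2.48 (2.31 to 2.66). The ratio was 2.13 (1.97 to 2.301) in cycling and 2.25 (1.83 to 2.76) in non-cycling cells. H2ac24 had 24.6 CPM in the library labelled KO and 29.3 CPM in WT, a ratio of 0.84 (0.78 to 0.90), with 0.71 (0.66 to 0.76) in cycling cells. Among cycling macrophages or monocytes H2ac8 was at 115.5 CPM in the library labelled KO and 49.4 CPM in WT, and H2ac24 at 69.3 and 96.8 CPM. Cycling T cells had H2ac8 at 159 and 89.8 CPM and H2ac24 at 124 and 161 CPM. Cycling male-type cells of the library labelled KO had H2ac8 at 120.1 CPM and its female-type cells at 131 CPM, against 53.8 CPM in male-type WT cells. For H2ac24 the values were 87.6, 71.2 and 101 CPM. The sum of all H2A members had a ratio of 1.23 (1.18 to 1.29) in cycling cells, and the log2 ratio of all replication-dependent members over all cells was 0.39 without both genes, against 0.40 with them.

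Other ratios were smaller or less exact. After H2ac8, the highest were those of H2ac4 at 2.14 (1.70 to 2.70) and H2bc24 at 2.09 (1.47 to 2.996), both from fewer than 4 CPM. The lowest after H2ac24 were H2ac11 at 0.98 (0.67 to 1.42) and H3c2 at 0.99 (0.57 to 1.70). H1f3 had a ratio of 1.81 (1.61 to 2.05), H1f4 of 1.54 (1.45 to 1.64) and H1f5 of 1.51 (1.41 to 1.62), while H1f2 had 1.17 (1.14 to 1.20). H3f3b gave most of the variant difference, with 2912 CPM in the library labelled KO and 2293 CPM in WT, a ratio of 1.27 (1.26 to 1.28). Without it, the log2 ratio of the variant group was 0.087, against 0.23 with it. H2az1 had 979.9 and 967 CPM, a ratio of 1.01 (1.00 to 1.02), and in cycling cells 0.96 (0.95 to 0.98).

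The size of the difference varied by class. The ratio of replication-dependent sums was 1.43 (1.40 to 1.46) in macrophages or monocytes, 1.48 (1.31 to 1.67) in NK cells and 1.92 (1.70 to 2.18) in dendritic cells. In T cells it was 1.06 (0.99 to 1.12) and in fibroblast or mesenchymal cells 0.98 (0.90 to 1.08). Within cycling cells, macrophages or monocytes had 1.41 (1.37 to 1.46) and T cells 1.11 (1.02 to 1.21). The share of cycling cells also differed by class: it was 21.2% in the library labelled KO and 15.6% in WT for macrophages or monocytes, 22.6% and 13.3% for dendritic cells, and 13.3% and 13.2% for T cells. Thinned to 3000 UMIs, these shares were 11.0% and 7.71%, 13.6% and 6.43%, and 7.33% and 12.0%, so that T cells changed order, and the part of cell depth and cycling in the ratios was not tested. Male-type cells alone had a log2 ratio of 0.43 for replication-dependent members, and female-type KO cells against all WT cells 0.42, beside 0.40 for all cells. With 1 library on each side, genotype, animal and library preparation cannot be told apart.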

How the data were processed

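Single-cell RNA libraries of 2 samples were used, 1 labelled KO and 1 labelled WT, so that each group had 1 library. Values were the deposited whole-number UMI counts per gene and cell. Per the file headers they come from Cell Ranger 8.0.1, and the submitters' processing notes name mm10 and Seurat 3. The sources used here do not give the annotation release. RNA was captured on barcoded beads in microwells, per the labels' protocols.

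Cells with at least 500 UMIs and 200 genes and at most 25% mitochondrial UMIs were kept, and the highest 5% of Scrublet scores (scanpy 1.11.5) were left out as likely doublets. Left out this way were 319 cells of the library labelled KO and 457 of WT. Scrublet's own threshold marked too few cells to be used. Kept cells held 54840011 UMIs in the library labelled KO and 75985426 in WT.

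Counts were summed over cells and divided by the cells' total UMIs (CPM), without correction for gene length. Intervals at 95% are exact Poisson for levels, exact binomial for ratios of summed counts and Clopper-Pearson for shares. Single genes were counted as 2-fold different on log2(CPM + 5), over genes with at least 50 UMIs in both libraries together. A fold against 0 counts used a floor of 3 counts. Cells of 1 library are not replicates, so no p-value is given. The summing and interval code was tested on simulated data. Coordinates and transcripts come from GENCODE M21 on mm10, and promoters from RefSeq on GRCm38.p6.

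Named members are those with at least 200 UMIs, up to the 16 most abundant replication-dependent ones and all such variants, plus the 3 highest and 3 lowest by the ratio of the libraries. Of the 38 listed genes of histone message processing and chaperones, up to 6 past 2-fold are named. Genes named for sequence or pairing alone were chosen after their values were seen. Members and lists were chosen with earlier results of these data known.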

Additional observations from a re-analysis of the deposited data

Results flagged for a closer look

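Members were compared between gated classes within the same kind of cell, where each library had at least 20 cells of that kind in the class. Both cases below have a log2 gap of at least 1 between the classes' ratios of the library labelled KO over WT, with intervals on opposite sides of 1. H2bc11 in cycling cells had a ratio of 1.92 (1.38 to 2.70; 107 UMIs in the library labelled KO and 57 in WT) in macrophages or monocytes. In T cells its ratio was 0.44 (0.19 to 0.91; 9 and 46 UMIs), a log2 gap of 2.12. H4c9 in cycling cells had a ratio of 1.67 (1.42 to 1.98; 385 and 236 UMIs) in macrophages or monocytes. In T cells its ratio was 0.55 (0.33 to 0.89; 22 and 90 UMIs), a log2 gap of 1.60. The differences between classes were not tested, since each rests on 1 library per genotype, and 22 members were looked at.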

How the results depend on the processing

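No alternative turned a direction. All values are log2 ratios. The library labelled KO over WT was 0.40 for replication-dependent members. It was 0.43 scaled by the median gene, 0.49 without H1f2, 0.15 as the median of members, 0.43 in male-type cells and 0.32 with cycling and non-cycling cells weighted alike. For variant members (0.23) it was 0.21 in thinned cells, 0.22 without mitochondrial and the 50 most abundant genes in the scaling, 0.26 scaled by the median gene, 0.087 without H3f3b and 0.12 as the median. It was 0.27 in male-type cells, 0.22 with female-type KO cells, 0.21 with classes weighted by their mean share and 0.19 with cycling and non-cycling cells weighted alike.

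Cycling over non-cycling for replication-dependent members was 1.37 in both libraries. In the library labelled KO it was 1.30 with doublets kept, 1.68 thinned, 1.31 scaled by the median gene, 2.10 without H1f2, 0.61 as the median, 1.53 in male-type cells, 0.92 with cycling set at 1 UMI, 1.71 at 4 UMIs, 1.31 against cells with 0 UMIs, 1.53 in macrophages or monocytes and 1.06 without H2ac8 and H2ac24. In WT it was 1.30 with doublets kept, 1.45 with 10% of scores left out, 1.74 thinned, 1.33 without the 50 most abundant genes, 1.31 scaled by the median gene, 2.18 without H1f2, 0.50 as the median, 0.96 at 1 UMI, 1.64 at 4 UMIs and 1.03 without H2ac8 and H2ac24.

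For variant members in the library labelled KO (0.45) the same ratio was 0.42 with doublets kept, 0.47 with 10% left out, 0.59 thinned, 0.43 without the 50 most abundant genes, 0.39 scaled by the median gene, 0.81 without H3f3b, 0.51 as the median, 0.52 in male-type cells, 0.30 at 1 UMI, 0.62 at 4 UMIs and 0.49 in macrophages or monocytes. In WT (0.52) it was 0.49 with doublets kept, 0.57 with 10% left out, 0.65 thinned, 0.48 without the 50 most abundant genes, 0.46 scaled by the median gene, 0.84 without H3f3b, 0.48 as the median, 0.35 at 1 UMI, 0.66 at 4 UMIs and 0.55 in macrophages or monocytes.

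The count of members 2-fold higher in cycling cells in both libraries, 13 over both groups against 2.36% of all genes, was 8 with cycling set at 1 UMI (1.59% of all genes), 29 with 1 CPM added (3.88%) and 6 with 20 CPM added (1.11%). The causes of these shifts were not tested, except that a member left out or a larger added value acts by its construction. The alternatives that weighted cycling and non-cycling cells alike or left out H2ac8 and H2ac24 were chosen after seeing the data. No paired analysis was possible because each genotype has 1 library. Members near 50 UMIs have wide intervals, and 17 replication-dependent members lie below it.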

Other observations

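Histone genes whose symbols lie outside the chosen set showed both patterns. H2ax, which encodes the H2A.X histone marked at DNA breaks, had 100.5 CPM in cycling and 14.2 CPM in non-cycling cells of the library labelled KO, and 147 and 16.7 CPM in WT. Cenpa, the centromeric H3 variant, had 156 and 37.8 CPM in the library labelled KO and 196 and 46.5 CPM in WT. H2aj, an H2A gene outside the clusters, had 231 CPM in cycling and 262 CPM in non-cycling cells of the library labelled KO, and 204 and 231 CPM in WT, so that its ratio of 0.88 in both libraries lay close to that of H1f2. Macroh2a1, which encodes a macroH2A variant, gave 1.28 in the library labelled KO and 1.37 in WT. Over all cells, H2ax, Cenpa and Macroh2a1 were lower in the library labelled KO than in WT. Their ratios were 0.81 (0.77 to 0.85), 0.87 (0.84 to 0.91) and 0.95 (0.93 to 0.97), while H2aj had 1.13 (1.10 to 1.15).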
